A study of Mus musculus with 35 samples.

Results

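The genes described here encode chains of collagen IV and laminin and the proteoglycan agrin, the main building blocks of the glomerular basement membrane. They are 10 genes chosen by name out of the 33292 genes of the deposited table, and all 10 symbols matched 1 Ensembl identifier each. The rule that names them uses no measured value, but it was made with earlier results of these data known. Col4a1, Col4a2 and Lamb1 encode chains of the embryonic membrane, Col4a3, Col4a4, Col4a5 and Lamb2 chains of the mature membrane, and Lama5, Lamc1 and Agrn chains that belong to the mature membrane as well. The question was how podocytes with a mutant Lmx1b allele, with and without a proteasome inhibitor, express both sets.

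The glomerular basement membrane is a sheet of extracellular matrix between podocytes and endothelial cells, and both cell types contribute to it during development. While the glomerulus matures, the collagen IV network built from the chains of Col4a1 and Col4a2 is largely replaced by the network built from the chains of Col4a3, Col4a4 and Col4a5, which podocytes make, and the laminin chain of Lamb1 gives way to that of Lamb2. Loss of the mature chains causes Alport syndrome in the case of collagen IV and Pierson syndrome in the case of Lamb2. Lmx1b encodes a LIM-homeodomain transcription factor of podocytes, and mutations of the human gene cause nail-patella syndrome.

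RNA was sequenced from podocytes of 35 C57BL/6 mice aged 7 to 10 weeks, 1 library per mouse. The controls were Lmx1b +/lox mice, which the labels call WT but which also carry a floxed allele, and the knock-in mice were Lmx1b H77L/lox and C118F/lox mice, whose mutations lie in the LIM domains. Every mouse carried rtTA under a promoter fragment that is active in podocytes, a tetO::Cre transgene and the mTmG reporter. Doxycycline (2 mg/ml, 7 days) switched on Cre, which removed the homeodomain exons of the floxed allele and turned podocytes green for sorting by FACS, so that the knock-in podocytes kept the mutant allele and the control podocytes a wild-type allele. The mice received the proteasome inhibitor bortezomib (0.3 μg/g every other day) or its solvent DMSO, with 6 mice per group and 5 in the bortezomib-treated Lmx1b C118F/lox group. The reads per mouse, estimated from the steps of the values, ranged from 5264579 to 24135489 with a median of 19153645. The lowest value came from mouse 2 of the bortezomib-treated Lmx1b C118F/lox group, followed by 14033140 reads in mouse 2 of the DMSO-treated Lmx1b +/lox group.

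Values are given as TPM, a unit that divides reads by gene length and scales each library to the same total, and which can therefore be compared between genes. Lmx1b itself was at 44.8 to 89.7 TPM in DMSO-treated Lmx1b +/lox mice (median 71.5), at 89.9 to 140 TPM in Lmx1b H77L/lox mice (median 120) and at 37.4 to 185 TPM in the Lmx1b C118F/lox group (median 104). Under bortezomib, its medians were 88.1, 93.8 and 128 TPM in the same order of genotypes. These values sum both alleles and all exons, so they do not check the genotypes. The identity of the cells was checked with marker genes. The podocyte genes were the most abundant of the marker lists in every group, and their summed TPM had a median of 28720 in DMSO-treated Lmx1b +/lox mice, 9550 in Lmx1b H77L/lox mice and 7846 in the Lmx1b C118F/lox group. At a limma adjusted p under 0.05, 9 of the 12 podocyte genes were lower in each knock-in line under DMSO. In Lmx1b H77L/lox mice 2 were higher, and in the Lmx1b C118F/lox group 0. Of all genes tested, 22.4% and 16.6% were lower and 22.4% and 13.7% higher in the 2 lines. TPM is scaled within each library and does not measure RNA per podocyte, and the cause of the lower sums was not tested.

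Marker genes of other cells were present at lower levels. The endothelial markers summed to medians of 21.6, 23.9 and 27.8 TPM under DMSO in the same order of genotypes, most of it Ehd3, and 6 of the 12 genes, among them Pecam1 and Cdh5, had a median under 1 TPM in every group. The 8 mesangial markers summed to medians of 34.0, 208 and 229 TPM, with Pdgfrb as the most abundant gene (medians 13.3, 196 and 125 TPM), while Pdgfra, Itga8, Gata3, Sfrp2 and Ebf1 had medians under 1 TPM in every group. Agtr1a had medians of 2.39, 1.74 and 1.49 TPM and Ren1 of 6.205, 7.095 and 2.67 TPM. Neither was thus higher in both knock-in groups, as Pdgfrb was. The 5 parietal epithelial markers summed to medians of 60.1, 147 and 125 TPM, led by Cldn1, with Pax2 and Cldn3 under 1 TPM. The tubule markers summed to medians of 93.0, 14.7 and 15.1 TPM, with Kap as the gene of the highest median in each group (61.8, 4.99 and 3.40 TPM), although Slc34a1 had the highest mean over all 35 mice. The leukocyte markers summed to medians of 17.6, 15.3 and 18.1 TPM, but from different genes. Lyz2 had the highest median in the controls (12.2 TPM, against 0.223 and 0.452 TPM in the knock-in groups), Csf1r in Lmx1b H77L/lox mice (10.8 TPM) and Cd68 in the Lmx1b C118F/lox group (10.2 TPM). Under bortezomib, the mesangial sums had medians of 23.0, 173 and 155 TPM, the parietal sums 60.0, 122 and 151 TPM and the endothelial sums 30.3, 25.6 and 19.5 TPM. The leukocyte sums had medians of 5.13, 11.7 and 19.0 TPM, with Csf1r at 2.82, 9.51 and 11.9 TPM and Ptprc at 0 by its median in each group, the tubule sums 54.8, 14.4 and 13.0 TPM and the podocyte sums 26850, 11420 and 10550 TPM. No marker was at 0 in every mouse, and the part of these cells in the results below was not tested beyond leaving out the mice named next.

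Among the DMSO-treated mice, 7 libraries stood apart in their markers, 4 of them also in a member by Dixon's criterion (mouse 1 and mouse 2 of Lmx1b +/lox, mouse 6 of Lmx1b H77L/lox and mouse 1 of Lmx1b C118F/lox). Lmx1b +/lox mouse 1 had leukocyte markers summing to 328 TPM, of which Lyz2 made up 285, and Lmx1b C118F/lox mouse 1 had mesangial markers summing to 2272 TPM, of which Ren1, the renin gene of juxtaglomerular cells, made up 2166, and endothelial markers summing to 211 TPM. Lmx1b H77L/lox mouse 6 had the lowest podocyte sum of its group (5844 TPM) and the highest parietal epithelial sum (246 TPM). The tubule sum was 1201 TPM in Lmx1b +/lox mouse 2 (Umod 416 TPM), 373 TPM in Lmx1b H77L/lox mouse 5 and 155 TPM in Lmx1b C118F/lox mouse 4, against at most 215, 18.4 and 22.2 TPM in the other mice of these groups. Lmx1b H77L/lox mouse 2 had a mesangial sum of 558 TPM, of which Pdgfrb made up 544. Lmx1b +/lox mouse 2 also had the highest Lamb1 and the lowest Col4a5 value of its group. The comparisons under DMSO are therefore also given without the first 3 mice described here, without the other 4, which include Lmx1b +/lox mouse 2 for its tubule markers, and without all 7. Under bortezomib, Lmx1b +/lox mouse 2 had the highest tubule sum (395 TPM).

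In the mouse genome (GRCm39, GENCODE vM39), the collagen IV genes lie in head-to-head pairs. Col4a1 (chr8:11248423-11362826, minus strand) faces Col4a2 (chr8:11362471-11499287, plus strand), and Col4a3 (chr1:82564642-82699780, plus strand) faces Col4a4 (chr1:82426144-82564800, minus strand). The starts of the reference transcripts are 317 bases apart in the first pair and 103 bases apart in the second. In both pairs the plus-strand gene starts at the lower coordinate, so the transcripts overlap at their 5' ends. The bases before each start therefore lie inside the partner gene. The annotated exons of the pairs share 311 and 159 bases, so that reads from these bases cannot be assigned without strand information, which the sources used here do not mention. Col4a5 (chrX:140258354-140472231, plus strand) starts 1282 bases from Col4a6. The laminin genes Lama5 (chr2:179818166-179867712, minus strand), Lamb1 (chr12:31315030-31379658, plus strand), Lamb2 (chr9:108356935-108367729, plus strand) and Lamc1 (chr1:153094597-153208774, minus strand) and Agrn (chr4:156249740-156282014, minus strand) lie apart from these pairs.

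The promoter windows of both pairs are shown, since the pairs differed in the values that follow although both share the head-to-head arrangement. Each window runs from 250 bases before to 50 bases after the transcript start on the strand of the gene, and capitals mark CCAAT and GGGCGG on either strand (ATTGG and CCGCCC in the printed strand). Col4a1 is at chr8:11362777-11363076 (minus strand), Col4a2 at chr8:11362259-11362558 (plus strand), Col4a3 at chr1:82564447-82564746 (plus strand) and Col4a4 at chr1:82564751-82565050 (minus strand).
Col4a1: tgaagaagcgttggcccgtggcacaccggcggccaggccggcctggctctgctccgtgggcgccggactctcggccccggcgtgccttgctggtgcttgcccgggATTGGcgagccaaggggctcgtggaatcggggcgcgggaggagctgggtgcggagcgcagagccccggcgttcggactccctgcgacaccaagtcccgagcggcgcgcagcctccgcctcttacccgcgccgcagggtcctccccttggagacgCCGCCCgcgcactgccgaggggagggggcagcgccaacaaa
Col4a2: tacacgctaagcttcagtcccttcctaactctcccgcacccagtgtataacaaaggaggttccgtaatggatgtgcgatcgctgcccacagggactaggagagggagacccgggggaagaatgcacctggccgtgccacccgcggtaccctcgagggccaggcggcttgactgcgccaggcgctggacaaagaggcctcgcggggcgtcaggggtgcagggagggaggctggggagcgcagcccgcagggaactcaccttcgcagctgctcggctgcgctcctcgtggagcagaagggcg
Col4a3: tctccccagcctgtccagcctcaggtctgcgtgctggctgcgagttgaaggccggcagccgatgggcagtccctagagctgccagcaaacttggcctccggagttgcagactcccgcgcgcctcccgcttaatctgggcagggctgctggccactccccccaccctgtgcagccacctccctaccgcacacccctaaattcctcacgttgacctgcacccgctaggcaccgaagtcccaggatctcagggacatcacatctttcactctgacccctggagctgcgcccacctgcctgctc
Col4a4: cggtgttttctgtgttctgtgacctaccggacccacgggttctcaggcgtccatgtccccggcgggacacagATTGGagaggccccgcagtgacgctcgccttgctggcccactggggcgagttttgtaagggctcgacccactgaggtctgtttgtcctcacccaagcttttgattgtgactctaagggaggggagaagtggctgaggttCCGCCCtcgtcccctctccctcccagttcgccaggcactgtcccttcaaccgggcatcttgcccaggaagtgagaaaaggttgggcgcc
Col4a1 and Col4a4, the partners on the minus strand, held 1 CCAAT and 1 GGGCGG each, and Col4a2 and Col4a3 held neither. Of 21770 windows of protein-coding genes, 39.9% held CCAAT and 42.5% held GGGCGG. The letters TAATTA, a core sequence of homeodomain binding, and TATAAA were in none of the 10 windows, against 5.51% and 13.2% of all windows. The windows of Col4a1 (74.0% G or C), Col4a2 (65.7%), Col4a3 (64.7%) and Col4a4 (61.0%) were richer in G and C than the median window (54.3%), while those of Col4a5 (52.3%) and Lamb2 (43.3%) were not. These matches describe the windows only.

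In DMSO-treated Lmx1b +/lox mice, the mature chains were by far the more abundant. Col4a3 had a median of 442 TPM, followed by Lamb2 (404), Col4a5 (239), Col4a4 (164), Agrn (49.9), Lamc1 (41.7), Lama5 (19.5), Col4a2 (3.81), Col4a1 (2.45) and Lamb1 (0.943). The ranges of most neighbours in this order overlapped. Within single mice, Col4a5 was above Col4a4 and Agrn above Lamc1 in 6 of 6, and Lamb2 above Col4a5 in 5 of 6. Col4a3 was above Lamb2 in 4 of 6 mice, Col4a2 above Col4a1 in 4 of 6 and Col4a1 above Lamb1 in 4 of 6, while the ranges of Col4a4 and Agrn, of Lamc1 and Lama5, and of Lama5 and Col4a2 did not overlap. Col4a1 and Col4a2 together made up 0.126% to 2.704% of the summed TPM of the 5 collagen IV genes (median 0.630%).

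**Figure D1:**
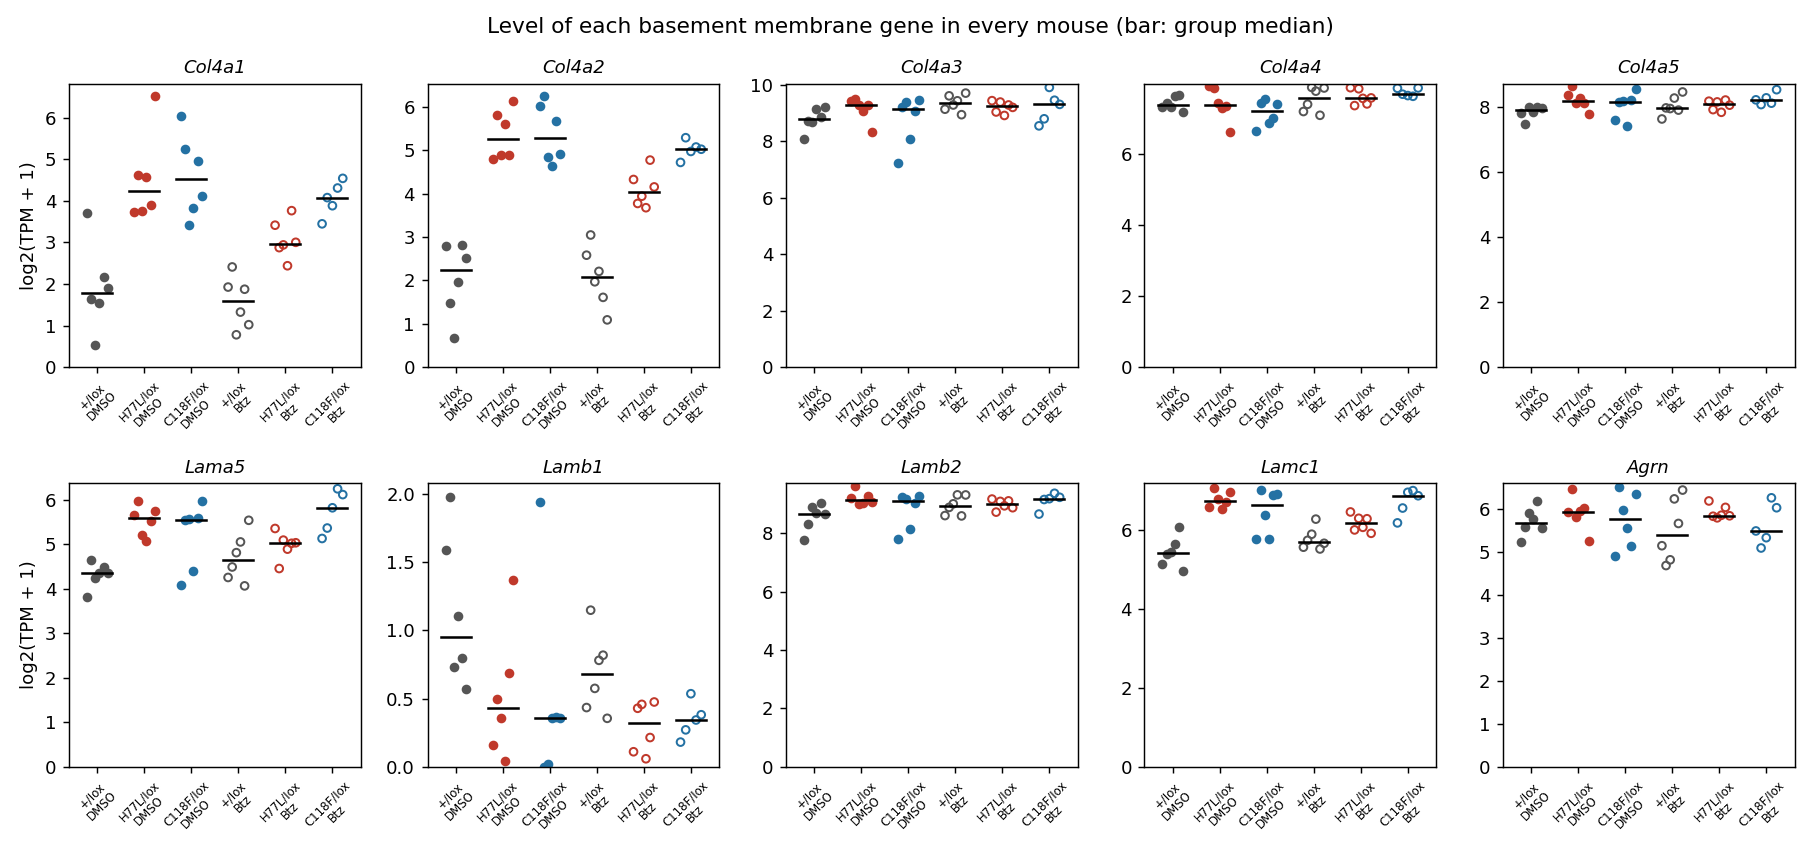
Level of each of the 10 genes in every mouse, as log2(TPM + 1) on the vertical axis, by genotype and treatment on the horizontal axis (filled points DMSO, open points bortezomib, bars group medians, n = 6 mice per group and 5 for bortezomib-treated Lmx1b C118F/lox mice). Col4a1 and Col4a2 were higher in the knock-in groups than in the controls (medians 18.3 and 38.3 TPM in DMSO-treated Lmx1b H77L/lox mice against 2.45 and 3.81 TPM), whereas the ranges of Col4a3, Col4a4 and Agrn overlapped between genotypes under each treatment.

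In podocytes of both knock-in lines, the embryonic collagen IV genes rose. With all mice in the fit, the mature collagen IV genes were not found changed, apart from a small rise of Col4a5 in Lmx1b H77L/lox mice. Col4a1 was at 0.451 to 12.2 TPM in DMSO-treated Lmx1b +/lox mice (median 2.45), at 12.3 to 91.1 TPM in Lmx1b H77L/lox mice (median 18.3) and at 9.78 to 64.8 TPM in the Lmx1b C118F/lox group (median 23.2). All 6 Lmx1b H77L/lox mice were above every control, and 5 of 6 Lmx1b C118F/lox mice were. The log2 fold change was 2.60 ± 0.51 (SE, limma on log2(TPM + 1), adjusted p = 9.63e-04) in Lmx1b H77L/lox mice and 2.68 ± 0.50 (adjusted p = 9.91e-04) in the Lmx1b C118F/lox group.

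Col4a2, whose product joins that of Col4a1 in the same triple helix, was at 0.581 to 5.99 TPM in the controls (median 3.81), at 26.7 to 69.6 TPM in Lmx1b H77L/lox mice (median 38.3) and at 24.1 to 75.6 TPM in the Lmx1b C118F/lox group (median 39.6). Neither knock-in group overlapped with the controls. The log2 fold changes were 3.32 ± 0.36 (SE, limma adjusted p = 5.33e-06) and 3.35 ± 0.38 (adjusted p = 1.40e-05). Both genes exceeded 1 TPM in every knock-in mouse but not in every control, so they entered the test through the groups in which they were high. The medians were 7.49 times (Col4a1) and 10.1 times (Col4a2) those of the controls in Lmx1b H77L/lox mice, and 9.45 and 10.4 times in Lmx1b C118F/lox mice.

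Among the mature collagen IV genes, Col4a3 was at 267 to 593 TPM in the controls (median 442), at 319 to 724 TPM in Lmx1b H77L/lox mice (median 623) and at 149 to 697 TPM in the Lmx1b C118F/lox group (median 566). Its log2 fold changes were 0.37 ± 0.21 (SE, limma adjusted p = 0.169) and -0.04 ± 0.34 (adjusted p = 0.941), with overlapping ranges. Col4a4, its head-to-head neighbour, had medians of 164, 165 and 147 TPM and log2 fold changes of -0.01 ± 0.18 and -0.27 ± 0.15 (adjusted p = 0.968 and 0.198). The X-linked Col4a5 was at 177 to 255 TPM in the controls and at 221 to 403 TPM in Lmx1b H77L/lox mice, and its log2 fold change of 0.37 ± 0.13 passed the test there (adjusted p = 0.0330) but not in Lmx1b C118F/lox mice (0.17 ± 0.17, adjusted p = 0.499). The call in Lmx1b H77L/lox mice was lost without a filter on low values (adjusted p = 0.0779), with all 35 mice in 1 fit (0.0505), without the 4 mice with high tubule or mesangial markers (log2 fold change 0.21, adjusted p = 0.174) and when any 1 of 6 mice was left out.

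The share of Col4a1 and Col4a2 in the summed TPM of the 5 collagen IV genes was 3.02% to 20.1% in Lmx1b H77L/lox mice under DMSO (median 4.70%) and 3.16% to 22.6% in the Lmx1b C118F/lox group (median 6.99%), against 0.126% to 2.704% in the controls. No knock-in mouse overlapped with the controls. The highest shares belonged to 3 of the mice that stood apart, mouse 6 of the Lmx1b H77L/lox group and mouse 1 of the Lmx1b C118F/lox and Lmx1b +/lox groups. The mature collagen IV genes thus still made up most of the collagen IV transcripts in every mouse, and their summed TPM had medians of 867, 1065 and 1004 in controls, Lmx1b H77L/lox and C118F/lox mice.

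**Figure D2:**
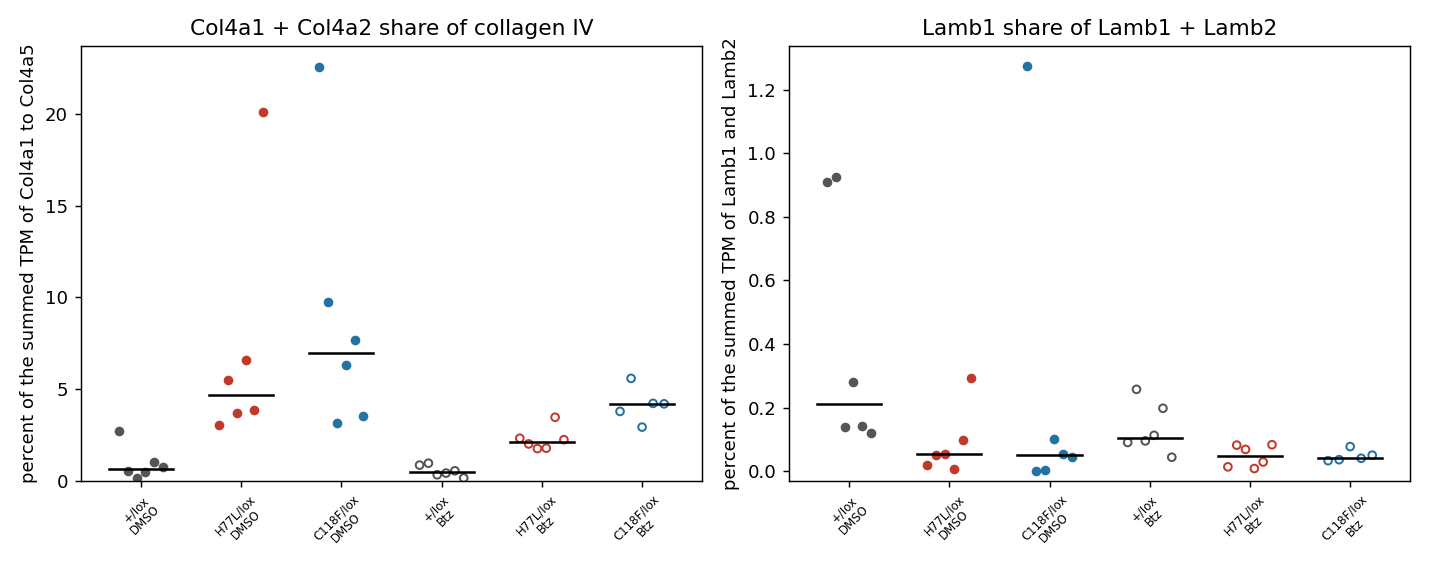
Share of the embryonic chains by mouse, in percent of the summed TPM of Col4a1 to Col4a5 (left) and of Lamb1 and Lamb2 (right), by genotype and treatment (filled points DMSO, open points bortezomib, bars medians). The collagen IV share had a median of 0.630% in DMSO-treated controls, 4.70% in Lmx1b H77L/lox mice and 6.99% in the Lmx1b C118F/lox group, whereas the Lamb1 share was highest in the controls by its median (0.211% against 0.0540% and 0.0501%).

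The embryonic laminin gene had lower medians in the knock-in groups than in the controls, while its mature partner was abundant throughout. Lamb1 was listed at 0.482 to 2.94 TPM in DMSO-treated controls (median 0.943), 0.0304 to 1.58 TPM in Lmx1b H77L/lox mice (median 0.347) and 0 to 2.83 TPM in the Lmx1b C118F/lox group (median 0.282). Under bortezomib, its medians were 0.604, 0.253 and 0.268 TPM in the same order of genotypes. It rested on 0 to 161 reads per mouse and failed the filter on low values in every comparison. Fitted without the filter, Lamb1 was at a log2 fold change of -0.61 (limma adjusted p = 0.172) in Lmx1b H77L/lox and -0.62 (0.316) in C118F/lox mice under DMSO, and at -0.39 (0.0984) and -0.34 (0.157) under bortezomib, and none passed. Lamb2, the mature partner, was at 219 to 520 TPM in the controls (median 404), 509 to 782 TPM in Lmx1b H77L/lox mice (median 564) and 219 to 617 TPM in the Lmx1b C118F/lox group (median 548). It rose in Lmx1b H77L/lox mice, with a log2 fold change of 0.64 ± 0.18 (SE, limma adjusted p = 0.0104), and the value in Lmx1b C118F/lox mice was 0.21 ± 0.27 (adjusted p = 0.599). The rise was no longer called without the 4 mice with high tubule or mesangial markers (0.47, adjusted p = 0.0985) or without all 7 (0.27, adjusted p = 0.117).

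Lamc1 and Lama5, the other laminin genes described here, rose in both lines. Lamc1, which encodes the γ chain, was at 30.0 to 66.4 TPM in the controls (median 41.7), 90.8 to 133 TPM in Lmx1b H77L/lox mice (median 105) and 53.0 to 127 TPM in the Lmx1b C118F/lox group (median 98.8). Its log2 fold changes were 1.32 ± 0.16 (SE, limma adjusted p = 1.92e-05) and 1.00 ± 0.25 (adjusted p = 0.00718). The Lmx1b H77L/lox mice did not overlap with the controls, and 4 of 6 Lmx1b C118F/lox mice were above every control.

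Lama5, which encodes the α chain, was at 13.0 to 23.8 TPM in the controls (median 19.5), 32.5 to 61.6 TPM in Lmx1b H77L/lox mice (median 46.8) and 15.9 to 61.2 TPM in the Lmx1b C118F/lox group (median 45.9). The log2 fold changes were 1.21 ± 0.16 (SE, limma adjusted p = 5.07e-05) and 0.87 ± 0.29 (adjusted p = 0.0327). Only the Lmx1b H77L/lox mice were free of overlap with the controls. In Lmx1b C118F/lox mice the call for Lama5 was lost with the number in the sample title as a covariate (log2 fold change 0.57, adjusted p = 0.184), without a filter on low values (0.0868) and without any 1 of 8 mice. Agrn, which binds laminin, was at medians of 49.9, 60.2 and 53.9 TPM, and its log2 fold changes of 0.21 ± 0.18 and 0.03 ± 0.26 did not pass (adjusted p = 0.381 and 0.937).

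**Figure D3:**
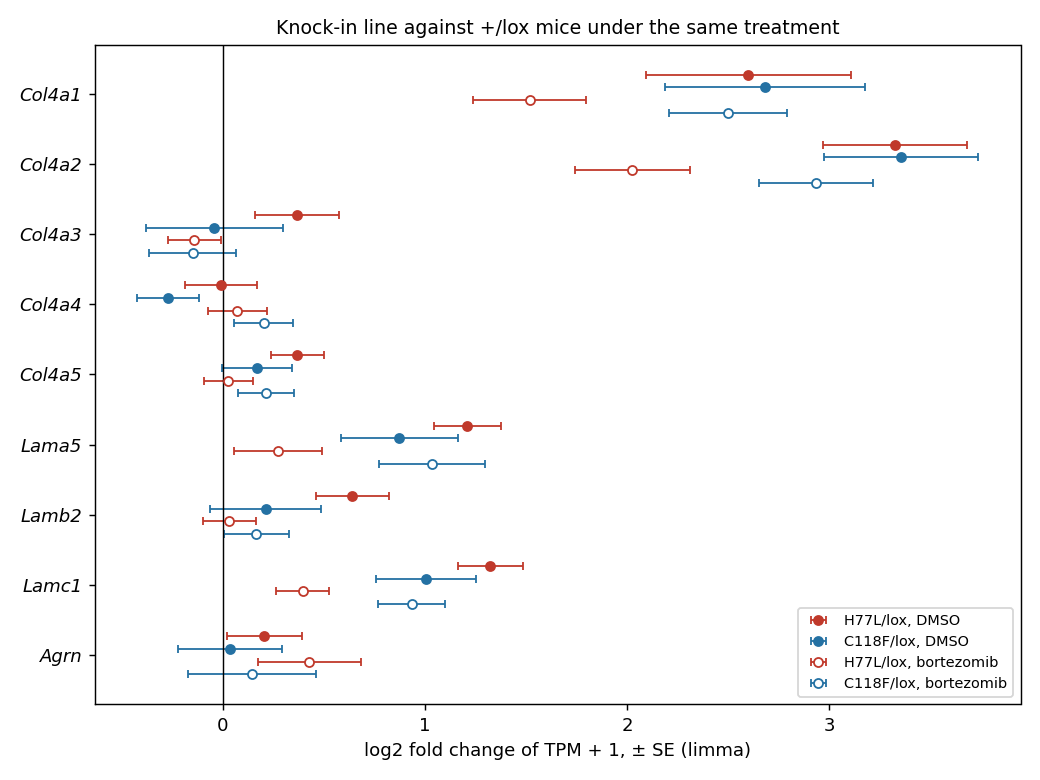
Log2 fold change of TPM + 1 of 9 genes in each knock-in line against Lmx1b +/lox mice under the same treatment (points estimates, bars ± SE, limma; filled points DMSO, open points bortezomib). Lamb1 did not pass the filter on low values. Col4a1 and Col4a2 lie farthest from 0 in all 4 comparisons, from 1.52 to 3.35, while Col4a3, Col4a4 and Agrn passed the test in none.

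Counted over the 10 genes, 6 were higher at an adjusted p under 0.05 in Lmx1b H77L/lox mice under DMSO (Col4a1, Col4a2, Col4a5, Lama5, Lamb2 and Lamc1) and 4 in the Lmx1b C118F/lox group (Col4a1, Col4a2, Lama5 and Lamc1), and none was lower. Of all 10964 genes tested in the first comparison, 22.4% were higher and 22.4% lower, and of 10899 in the second, 13.7% were higher and 16.6% lower. Col4a1 and Col4a2 are part of the counts of 6 and 4 but had entered the test through the knock-in groups alone. These counts, and the calls of both genes that follow, are therefore a description. The stricter rule sets a limit of 0.001 on the adjusted p and asks for a log2 fold change above 2. It called both genes in each line, and 1.62% and 1.63% of all genes. The adjusted p of Col4a1 lay close under that limit and reached 0.00301 in Lmx1b H77L/lox and 0.00324 in C118F/lox mice when single mice were left out, 0.00584 and 0.00636 without a filter, 0.0334 and 0.00772 with the number in the title as covariate, 0.00293 and 0.00277 with limma voom, 0.00135 and 0.00163 with a pseudocount of 0.1 TPM and 0.00858 and 0.00337 without the 4 mice with high tubule or mesangial markers. Groups without overlap, as for Col4a1, Col4a2, Lama5 and Lamc1 in Lmx1b H77L/lox mice, were found in the upward direction for 11% of all genes tested in that line, and for 6.48% in the Lmx1b C118F/lox group, where of the 10 genes Col4a2 alone was free of overlap. The median log2 fold change of the 9 members that passed the filter was 0.64 and 0.21, against -0.01 and -0.06 for all genes tested. These medians include Col4a1 and Col4a2 and leave out Lamb1, which the filter removed, so they too are a description.

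Without Lmx1b +/lox mouse 1, Lmx1b H77L/lox mouse 6 and Lmx1b C118F/lox mouse 1, 3 mice chosen after the data were seen, Col4a1 was at a log2 fold change of 2.56 (limma adjusted p = 1.50e-05) in Lmx1b H77L/lox and 2.75 (adjusted p = 1.14e-04) in Lmx1b C118F/lox mice. Col4a2 was at 3.32 and 3.38, Lamc1 at 1.22 and 1.08 and Lama5 at 1.06 and 0.99, and all of them passed at an adjusted p under 0.05. The number of genes called was then 7 and 4. The 7 in Lmx1b H77L/lox mice thus include a gene out of Col4a3, Col4a4 and Agrn, none of which was called with all mice. Col4a3 was at its lowest in the mouse left out of each group (267 TPM in Lmx1b +/lox, 319 TPM in Lmx1b H77L/lox and 149 TPM in Lmx1b C118F/lox mice). Without the other 4 mice, Col4a1 was at 2.67 (adjusted p = 0.00858) and 2.78 (0.00337) and Col4a2 at 3.21 (2.49e-04) and 3.39 (1.00e-04), and 4 genes were called in each line, Col4a1, Col4a2, Lama5 and Lamc1. Without all 7 mice, the same 4 genes were among the 5 called in each line, with Col4a5 as the other in Lmx1b H77L/lox mice and Lamb2 in the Lmx1b C118F/lox group, and with Col4a1 at 2.48 and 2.90 and Col4a2 at 3.11 and 3.43. The lines did not differ detectably from each other under DMSO, where limma called 0 of 10809 genes at an adjusted p under 0.05, with 416 at an unadjusted p under 0.05, none of them among the 10 genes, and limma voom on recovered reads also called 0.

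Under bortezomib, the same direction was seen for the embryonic collagen IV genes. Col4a1 was at 0.713 to 4.32 TPM in bortezomib-treated Lmx1b +/lox mice (median 2.08), 4.42 to 12.6 TPM in Lmx1b H77L/lox mice (median 6.85) and 9.92 to 22.3 TPM in the Lmx1b C118F/lox group (median 15.9). Col4a2 was at 1.13 to 7.26 TPM (median 3.26), 11.8 to 26.4 TPM (median 15.6) and 25.4 to 38.2 TPM (median 31.6) in the same groups. No knock-in mouse overlapped with the controls for either gene, as was the case in the upward direction for 6.8% of all genes in Lmx1b H77L/lox and 9.01% in C118F/lox mice. Here too Col4a1 entered the test through the knock-in groups alone, since not every control exceeded 1 TPM, whereas Col4a2 exceeded it in every mouse of the 3 groups. For Col4a1, the log2 fold changes were 1.52 ± 0.28 (SE, limma adjusted p = 7.91e-04) in Lmx1b H77L/lox mice and 2.499 ± 0.29 (adjusted p = 1.95e-05) in the Lmx1b C118F/lox group. For Col4a2, they were 2.03 ± 0.28 (adjusted p = 6.56e-05) and 2.93 ± 0.28 (adjusted p = 3.14e-06).

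Lamc1 rose in both lines under bortezomib as well, by a log2 fold change of 0.39 ± 0.13 (SE, limma adjusted p = 0.0370) in Lmx1b H77L/lox and 0.93 ± 0.17 (adjusted p = 7.56e-04) in Lmx1b C118F/lox mice. Lama5 rose in Lmx1b C118F/lox mice, by 1.03 ± 0.26 (adjusted p = 0.00913), and its value in Lmx1b H77L/lox mice was 0.27 ± 0.22 (adjusted p = 0.409). The call for Lamc1 in Lmx1b H77L/lox mice was lost in 3 other settings and without any 1 of 7 mice, and that for Lama5 was lost with the number in the sample title as a covariate (log2 fold change 0.36, adjusted p = 0.342). Col4a3, Col4a4, Col4a5, Lamb2 and Agrn did not pass in either line. That made 3 of the 10 genes higher in Lmx1b H77L/lox mice, where 12.5% of all genes were higher and 11% lower, and 4 in the Lmx1b C118F/lox group, where 15.1% were higher and 12.4% lower. None of the 10 genes was lower. The stricter rule called Col4a2 in Lmx1b H77L/lox mice and both Col4a1 and Col4a2 in the Lmx1b C118F/lox group (0.925% and 1.52% of all genes). The log2 fold change of Col4a2 in Lmx1b H77L/lox mice lay just above the limit of 2 and fell under it with quantile normalization (1.95) and without control mouse 5 or 6 or knock-in mouse 1 or 5 (1.83 to 1.98).

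Bortezomib lowered Col4a2 and Lamc1 in Lmx1b H77L/lox mice. The median of Col4a2 was 38.3 TPM under DMSO (26.7 to 69.6) and 15.6 TPM under bortezomib (11.8 to 26.4), and that of Lamc1 was 105 TPM (90.8 to 133) and 71.1 TPM (59.1 to 86.4). Neither gene overlapped between the treatments, which in the downward direction was the case for 1.16% of all genes tested. The log2 fold changes were -1.25 ± 0.24 (SE, limma adjusted p = 0.0352) for Col4a2 and -0.60 ± 0.11 (adjusted p = 0.0336) for Lamc1, and 0.74% of the 10813 genes tested were called lower and 0.416% higher. Col4a1 (medians 18.3 and 6.85 TPM, log2 fold change -1.45 ± 0.40, adjusted p = 0.0762) and Lama5 (medians 46.8 and 31.5 TPM, -0.55 ± 0.16, adjusted p = 0.0887) did not pass. Both calls were lost without a filter on low values (adjusted p = 0.112 for Col4a2 and 0.1004 for Lamc1), with all 35 mice in 1 fit (0.0663 and 0.145), without the 4 mice with high tubule or mesangial markers (0.0514 and 0.0538) or all 7 (0.102 and 0.122), and without single mice. Without Lmx1b H77L/lox mouse 6, Col4a2 was at -1.09 and Lamc1 at -0.56 (adjusted p = 0.0399 for both).

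In Lmx1b C118F/lox mice, bortezomib changed none of the 10 genes detectably. The medians were 23.2 and 15.9 TPM for Col4a1 (log2 fold change -0.55 ± 0.40, limma adjusted p = 0.820) and 39.6 and 31.6 TPM for Col4a2 (-0.37 ± 0.28, adjusted p = 0.821). Col4a4 was at 97.9 to 183 TPM under DMSO and at 195 to 229 TPM under bortezomib, without overlap, which was the case in the upward direction for 0.287% of all genes, but its log2 fold change of 0.58 ± 0.16 did not pass (adjusted p = 0.714). No gene of 10814 passed in this line, with 634 at an unadjusted p under 0.05, Col4a4 alone among the 10 genes. With all 35 mice in 1 fit 31 genes passed, none of them among the 10 (adjusted p = 0.232 for Col4a4), and limma voom called 0. In Lmx1b +/lox mice no gene of 10659 passed either, with 923 at an unadjusted p under 0.05, 0 called by limma voom and 1 called without the 4 mice with high tubule or mesangial markers, which was none of the 10. Of the 10 genes, Col4a3 alone was among the 923 (medians 442 and 656 TPM, log2 fold change 0.57 ± 0.18, adjusted p = 0.560), and Col4a1 and Lamb1 did not pass the filter in that comparison.

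**Figure D4:**
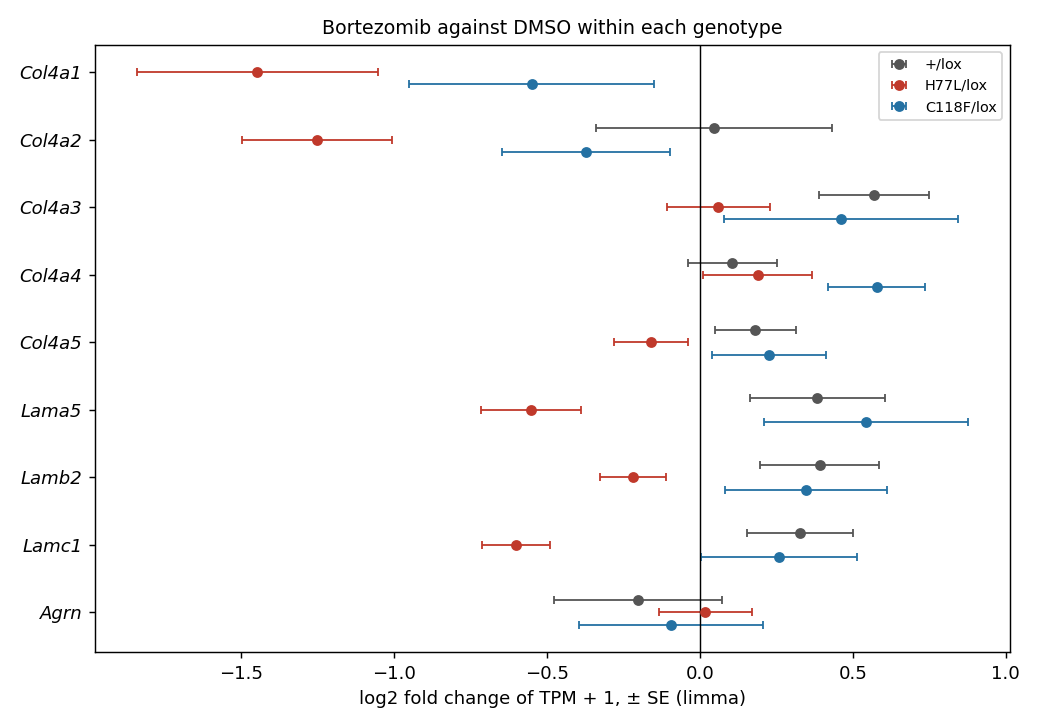
Log2 fold change of TPM + 1 between bortezomib and DMSO within each genotype (points estimates, bars ± SE, limma, n = 6 against 6 mice, and 5 against 6 in Lmx1b C118F/lox mice). Col4a1 was not tested in Lmx1b +/lox mice. In Lmx1b H77L/lox mice Col4a2 (-1.25) and Lamc1 (-0.60) passed the test, and in the other genotypes none did.

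Whether the bortezomib response differed between genotypes was tested with an interaction term. In the difference of the Lmx1b H77L/lox from the Lmx1b +/lox response, Lamc1 was at -0.93 ± 0.22 (SE, limma adjusted p = 0.0814), Lama5 at -0.94 ± 0.29 (adjusted p = 0.110), Lamb2 at -0.61 ± 0.24 (adjusted p = 0.173) and Col4a2 at -1.30 ± 0.49 (adjusted p = 0.161). Limma called 0 of 11163 genes, with 2037 at an unadjusted p under 0.05, these 4 among the 10 genes. Median-of-ratios scaling and leaving out the first 3 mice named above called 1 gene each, quantile normalization called 2 and limma voom 0, and none of these was among the 10. Lamc1 passed when Lmx1b +/lox mouse 5 of the DMSO group (adjusted p = 0.0291) or mouse 1 of the bortezomib group (adjusted p = 0.0346) was left out. The responses of the knock-in lines did not differ detectably either, with 0 of 11046 genes called, 840 at an unadjusted p under 0.05, among them Col4a2, Lama5 and Lamc1, and 0 called by limma voom. For Lmx1b C118F/lox against Lmx1b +/lox mice, 0 of 11197 genes were called, with 560 at an unadjusted p under 0.05, Col4a4 alone among the 10 genes, and 0 by limma voom.

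Between the bortezomib-treated knock-in lines, Col4a2 was higher in Lmx1b C118F/lox mice by a log2 fold change of 0.91 ± 0.18 (SE, limma adjusted p = 0.0273), and 4 of 5 of these mice were above all Lmx1b H77L/lox mice. Col4a1 (0.98 ± 0.24, adjusted p = 0.0649), Lama5 (0.76 ± 0.20, adjusted p = 0.0912) and Lamc1 (0.54 ± 0.15, adjusted p = 0.102) did not pass. Of 10803 genes, 0.713% were called higher and 0.259% lower. The call for Col4a2 was lost in 3 settings and without any 1 of 7 mice. The share of Col4a1 and Col4a2 in collagen IV was 0.152% to 0.959% in bortezomib-treated controls (median 0.481%), 1.75% to 3.46% in Lmx1b H77L/lox mice (median 2.12%) and 2.93% to 5.58% in the Lmx1b C118F/lox group (median 4.20%). These groups were ordered without overlap between controls and knock-in mice, whereas the lines overlapped with each other.

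Other genes of the basement membrane were taken from 3 lists. Among 28 further components, 13 passed the filter under DMSO, of which 9 were higher and 1 lower in Lmx1b H77L/lox mice and 6 were higher and 0 lower in the Lmx1b C118F/lox group, and the median log2 fold change of the 13 genes was 1.22 and 0.79. Of all genes, 22.4% were higher and 22.4% lower in the first comparison and 13.7% and 16.6% in the second. In each line, 4 of the 13 exceeded 1 TPM in every knock-in mouse but not in every control, Tinagl1 and Hspg2 among them, and so had entered the test through the group in which they were high. Among the largest changes shared by both lines were those of Ecm1 (medians 6.604, 89.2 and 146 TPM in controls, Lmx1b H77L/lox and C118F/lox mice), Tinagl1 (1.58, 10.54 and 11.6 TPM), the laminin-binding netrin gene Ntn4 (27.7, 129 and 162 TPM) and the perlecan gene Hspg2 (0.196, 1.43 and 2.58 TPM). Col4a6, the neighbour of Col4a5, rose too, by a log2 fold change of 1.22 ± 0.17 and 0.85 ± 0.24 (limma adjusted p = 6.31e-05 and 0.0169), and is named here after its values were seen. Under bortezomib, 5 of 10 genes tested were higher and 1 lower in Lmx1b H77L/lox mice (12.5% and 11% of all genes), and 7 of 12 higher and 2 lower in the Lmx1b C118F/lox group (15.1% and 12.4%). Through the knock-in group alone, 1 of the 10 and 3 of the 12 had entered, so these counts are a description.

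A further list held 24 genes for the assembly and processing of collagen IV and laminin. Of 22 genes tested, 15 were higher and 1 lower in Lmx1b H77L/lox mice under DMSO, and of 21 genes tested, 9 were higher and 0 lower in the Lmx1b C118F/lox group, with median log2 fold changes of 0.45 and 0.36, against the same shares of all genes (22.4% and 22.4%, 13.7% and 16.6%). Fkbp10 had entered through the knock-in groups, as 1 of 2 such genes in the first line and the 1 in the second. The largest shared changes were in the lysyl oxidase gene Lox (medians 13.9, 52.9 and 41.7 TPM), the collagen chaperone gene Fkbp10 (0.894, 6.75 and 7.52 TPM), the lysyl hydroxylase gene Plod2 (320, 683 and 677 TPM), Serpinh1, which encodes the collagen chaperone HSP47 (233, 350 and 414 TPM), and Loxl3 (20.1, 30.9 and 29.2 TPM). Plod2 had a log2 fold change of 0.98 ± 0.13 and 0.95 ± 0.16 (limma adjusted p = 3.56e-05 and 4.97e-04). Under bortezomib, 7 of 21 were higher and 2 lower in Lmx1b H77L/lox mice (12.5% and 11% of all genes), and 10 of 22 higher and 2 lower in the Lmx1b C118F/lox group (15.1% and 12.4%), of which 1 of the 21 and 2 of the 22 had entered through the knock-in group alone.

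Of the 20 receptor genes, 14 were tested under DMSO, of which 7 were higher and 2 lower in Lmx1b H77L/lox mice and 5 higher and 1 lower in the Lmx1b C118F/lox group, with median log2 fold changes of 0.34 and 0.27. The shares of all genes were again 22.4% and 22.4%, then 13.7% and 16.6%. Under bortezomib, 4 of 15 were higher in Lmx1b H77L/lox mice and 6 of 14 in the Lmx1b C118F/lox group, with 0 lower in both (12.5% and 11%, 15.1% and 12.4% of all genes), and 2 of the 15 and 1 of the 14 had entered through the knock-in group alone. The laminin receptor gene Itga7, the 1 receptor gene that entered the test through the knock-in groups under DMSO, went from a median of 0.299 TPM in the controls to 36.3 and 46.2 TPM, a log2 fold change of 4.78 ± 0.28 and 4.89 ± 0.29 (limma adjusted p = 1.51e-08 and 2.56e-08). Itgb1, whose product pairs with most integrin α chains of podocytes, was at medians of 1941, 5168 and 5073 TPM. The collagen receptor genes Itga2 (14.4, 36.9 and 32.4 TPM) and Itga1 (log2 fold changes 1.09 ± 0.15 and 0.70 ± 0.25) and the dystroglycan gene Dag1 (1677, 3297 and 3387 TPM) followed. Itga7 was also among the few genes lowered by bortezomib in Lmx1b H77L/lox mice (median 15.1 TPM, log2 fold change -1.28 ± 0.20, adjusted p = 0.0184), as was Tinagl1 (2.47 TPM, -1.97 ± 0.37, adjusted p = 0.0352). Both calls were lost without a filter on low values (adjusted p = 0.0829 for Itga7 and 0.112 for Tinagl1), where no gene was called, and without bortezomib-treated mouse 2, 3, 4 or 6 (up to 0.0769 and 0.0854). That of Tinagl1 was also lost with limma voom (0.0602), without all 7 mice with high marker sums (0.0801) and without DMSO-treated mouse 2 or 4 (0.0688 and 0.0852).

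**Figure D5:**
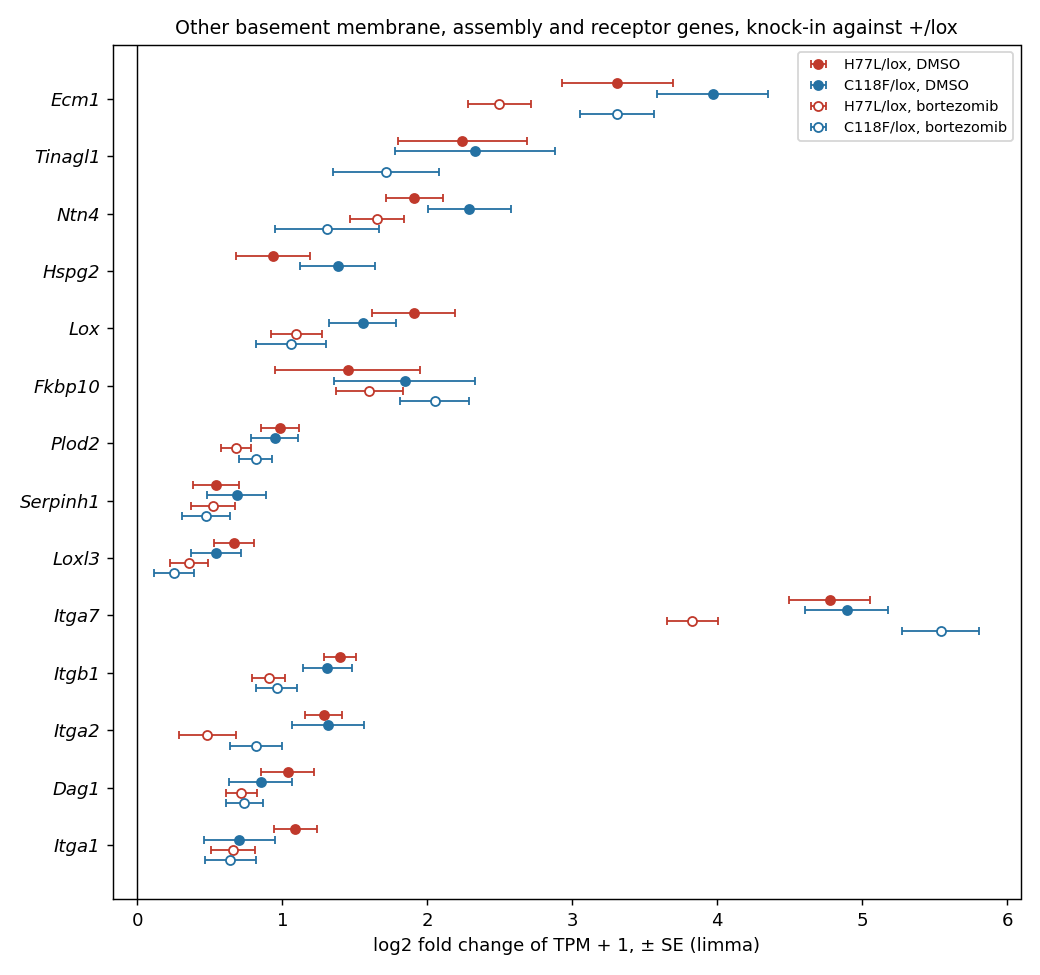
Log2 fold change of TPM + 1 of 14 further basement membrane, assembly and receptor genes in each knock-in line against Lmx1b +/lox mice (points estimates, bars ± SE, limma; filled points DMSO, open points bortezomib, missing points not tested). The genes are among those with the largest changes called in both lines under DMSO, so that their direction follows from the choice, and Itga7 (4.78 and 4.89 under DMSO) lies farthest from 0.

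The genes whose levels over the 35 mice were most like the summed TPM of Col4a3 and Col4a4, among 13236 genes, were Sptan1 (Pearson r = 0.859), Mtcl1 (0.855) and Ctr9 (0.830), and the r of the deviations from the group means was 0.879, 0.835 and 0.814. Among the genes described here, Lamb2 (0.784), Col4a5 (0.690) and Lama5 (0.542) had the highest r with this pair and Lamb1 the lowest (-0.549). For the summed TPM of Col4a1 and Col4a2, the most similar genes were Cpe (0.954), Capg (0.953) and Fads2 (0.950), with an r of 0.805, 0.780 and 0.764 for the deviations from the group means. Lamc1 had an r of 0.732 with this pair over all mice and of 0.118 for the deviations from the group means. The values of 1 mouse share its library and its cell composition, so that these correlations are descriptions.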

How the data were processed

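Podocyte libraries of 35 mice were analysed in 6 groups. The authors trimmed single-end reads with Trim Galore 0.6.7, aligned them with STAR to GRCm39, assigned reads with several locations to 1 of them at random, counted with featureCounts 1.6.3 and deposited TPM, in which each mouse sums to 1000000. Whether duplicates were removed is not given in the sources used here. Whole reads were recovered from the TPM steps (tolerance 0.005 reads) for 99.97% of the 23943 genes with a value, and only for the depth and an alternative fit. Reads copied by PCR do not count separate molecules, and errors were taken from the spread between mice. Names and positions came from GENCODE vM39 (32776 identifiers matched).

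For each comparison, genes above 1 TPM in every mouse of at least 1 group entered a fit with limma 3.58.1 (R 4.3.3, lmFit, eBayes with trend) to log2(TPM + 1) on the groups compared, with Benjamini-Hochberg adjustment over all genes tested. A fold change on this scale understates that of low genes. Calls used an adjusted p under 0.05, and the study's cutoffs (0.001 and a log2 fold change above 2) as a second rule. The fit was tested on simulated data. The members and gene lists, written from general knowledge, were chosen with earlier results of these data known. Single genes outside the members were the 5 of each list with the largest mean change among those called in both DMSO-treated lines, the most abundant gene of each marker list and the 3 genes most similar to each collagen pair. Col4a6 and marker genes beyond these were named after their values were seen. Some genes that this rule names are not reported here. Mice carry numbers given in the order of deposit.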

Additional observations from a re-analysis of the deposited data

Results flagged for a closer look

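Within the 60 combinations of gene and group, 5 values lay far from the rest of their group by Dixon's criterion, and chance alone gives about 1 in 20. Col4a1 was at 12.2 TPM in DMSO-treated Lmx1b +/lox mouse 1, against 3.46 TPM in the next mouse, and at 91.1 TPM in DMSO-treated Lmx1b H77L/lox mouse 6, against 23.7 TPM in the next. The latter mouse also had the highest Lamb1 value of its group (1.58 TPM, next 0.611), and DMSO-treated Lmx1b C118F/lox mouse 1 had the highest Lamb1 value of its own (2.83 TPM, next 0.288). Col4a5 was lowest in DMSO-treated Lmx1b +/lox mouse 2 (177 TPM, next 226). The marker sums of these 4 mice are given with the results, and their part in these values was not tested.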

How the results depend on the processing

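Col4a1, Col4a2 and Lamc1 against Lmx1b +/lox mice under DMSO, and Col4a1 and Col4a2 under bortezomib, passed in both lines under a pseudocount of 0.1 TPM, no filter, all 35 mice in 1 fit, the number in the sample title as covariate, median-of-ratios scaling, quantile normalization, limma voom and without any single mouse. The log2 fold change of Col4a2 ranged from 3.05 to 3.80 in Lmx1b H77L/lox and from 3.08 to 3.87 in Lmx1b C118F/lox mice under DMSO. The genes called in the main fit kept their direction in every setting and without any single mouse, and the direction of genes not called was not followed. The bortezomib effect in Lmx1b H77L/lox mice lost its 2 calls (0 left) without a filter, with all 35 mice in 1 fit, and without the 4 mice with high tubule or mesangial markers or all 7 mice with high marker sums, which were chosen after the data were seen. The call between the bortezomib-treated lines was lost (0 left) without a filter, with all 35 mice in 1 fit and with the number in the title, and limma voom called 2. The cause of these lost calls was not tested.

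When single mice were left out, the genes called numbered 5 to 7, 3 to 4, 2 to 3 and 4 to 4 in the comparisons with Lmx1b +/lox mice (Lmx1b H77L/lox and C118F/lox, DMSO, then bortezomib). They numbered 0 to 3 for bortezomib in Lmx1b H77L/lox mice, 0 to 4 between the bortezomib-treated lines and 0 to 1 for the response of Lmx1b H77L/lox minus Lmx1b +/lox mice. Calls were lost for Col4a5 in Lmx1b H77L/lox mice under DMSO without control mouse 1, 2 or 4 or knock-in mouse 1, 2 or 4 (adjusted p up to 0.0724). Those for Lama5 in Lmx1b C118F/lox mice under DMSO were lost without control mouse 1, 3, 4 or 6 or knock-in mouse 2, 3, 5 or 6 (up to 0.0706), and for Lamc1 in Lmx1b H77L/lox mice under bortezomib without control mouse 1, 2, 5 or 6 or knock-in mouse 1, 3 or 5 (up to 0.0862). For bortezomib in Lmx1b H77L/lox mice, Col4a2 was lost without DMSO mouse 2 or 4 or bortezomib mouse 2, 3, 4 or 6 (up to 0.0875), and Lamc1 without DMSO mouse 2 or bortezomib mouse 2, 3, 4 or 6 (up to 0.0854). Between the bortezomib-treated lines, Col4a2 was lost without Lmx1b H77L/lox mouse 2, 3, 4 or 6 or Lmx1b C118F/lox mouse 2, 3 or 4 (up to 0.0843). The lowest depth was that of bortezomib-treated Lmx1b C118F/lox mouse 2. No paired analysis was run, since the labels give no replicate number shared between groups. Some mice of different groups carry neighbouring numbers in their titles, and a block on these was not tested.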
